A study of Mus musculus with 5 samples.

Results

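Periportal hepatocytes were the barcodes of 5 mouse liver libraries that held Cyp2f2 transcripts, a portal cytochrome P450, and almost no Cyp2e1 transcripts, a central one. They were chosen by measured values. A barcode needed at least 1000 UMIs (unique transcript molecules), at least 500 genes, between 2 and 30% mitochondrial UMIs, under 2% haemoglobin UMIs, at least 15 Cyp2f2 UMIs per 10000 and under 2 Cyp2e1 UMIs per 10000. Of 50000 barcodes, 28810 passed the quality limits and 9087 also met both gene limits. The mice were male C57BL/6J of wild-type genotype, kept on a normal chow diet. All mice had been trained for 3 days to a rhythm of 16 h without food and 8 h with food, and had 20% sucrose in their drinking water on the day of the experiment. The fed library was taken after 4 h of feeding, and the others 4, 8, 16 and 24 h after food and sucrose had been removed. The clock hour was 13 for the fed library and 17, 21, 5 and 13 for the fasted ones, and hour and length of fasting cannot be told apart except between 24 h and fed. Each time point was 1 library, and how many animals each held is not given in the sources used here. Differences therefore describe these libraries, without a test across animals, and every interval printed is a 95% interval that covers counting error only.

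Blood enters the liver lobule at the portal tract and leaves at the central vein, and hepatocytes along this path differ in what they make. Periportal hepatocytes receive the blood richest in oxygen and hormones and are known for gluconeogenesis (making glucose from lactate, glycerol and amino acids), for breaking down amino acids, for urea synthesis and for secreting plasma proteins. During fasting, glucagon and glucocorticoids raise gluconeogenic transcription, and the loss of insulin lowers the transcription of genes for fat synthesis.

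The 5 libraries held 40002260 to 68330252 UMIs each. Of 10000 barcodes a library, 2716 (8 h) to 9125 (16 h) passed the quality limits, and the median UMI count of periportal barcodes ran from 4593 at 16 h to 16776 at 4 h. Their median mitochondrial share was 12.3, 20.8, 9.80, 14.1 and 18.1% in time order, and 53 of the 977 at 4 h and 348 of the 1508 at 24 h were at or under 15%. The part of this difference in the results below was not tested beyond that limit. Pairs of libraries shared 22 to 30 barcode sequences, of which 0 to 3 were periportal in both. The periportal barcodes of the fed, 4, 8, 16 and 24 h libraries summed to 15759121, 12583843, 23063504, 7964018 and 14635332 non-mitochondrial UMIs. Levels below are UMIs per 1000000 of these sums (CPM).

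Periportal barcodes numbered 2827, 977, 1646, 2129 and 1508 in the fed, 4, 8, 16 and 24 h libraries. Their share of quality barcodes was 36.1% in the fed library (35.1 to 37.2%, Clopper-Pearson interval). In time order the fasted shares were 21.4% (20.2 to 22.6%), 60.6% (58.7 to 62.4%), 23.3% (22.5 to 24.2%) and 33.0% (31.6 to 34.3%). The 8 h library stood highest. The rule works on single molecules, so its share moves with depth. With each barcode thinned to 2000 UMIs and shallower ones left out (1205, 899, 192, 1025 and 0 quality barcodes in time order), the shares were 43.9, 29.8, 55.9, 31.0 and 37.7%. On the same barcodes without thinning they were 40.9, 26.0, 62.5, 23.8 and 33.0%, so thinning changed the order of the 4 and 16 h libraries. Counted per 10000 non-mitochondrial UMIs the shares were 39.4, 29.8, 61.8, 24.0 and 45.2%, with 24 h above fed. The 8 h library was highest in each of these counts, and the order of the others was not stable. Since the share follows from the 2 genes of the rule, it says how those genes were spread over barcodes and not how large a zone was. The 24 h library had little Cyp2e1 altogether: 75.3% of its quality barcodes were under the Cyp2e1 limit, against 53.3% in the fed library, and only 36.9% reached the Cyp2f2 limit, against 53.0%.

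**Figure D1:**
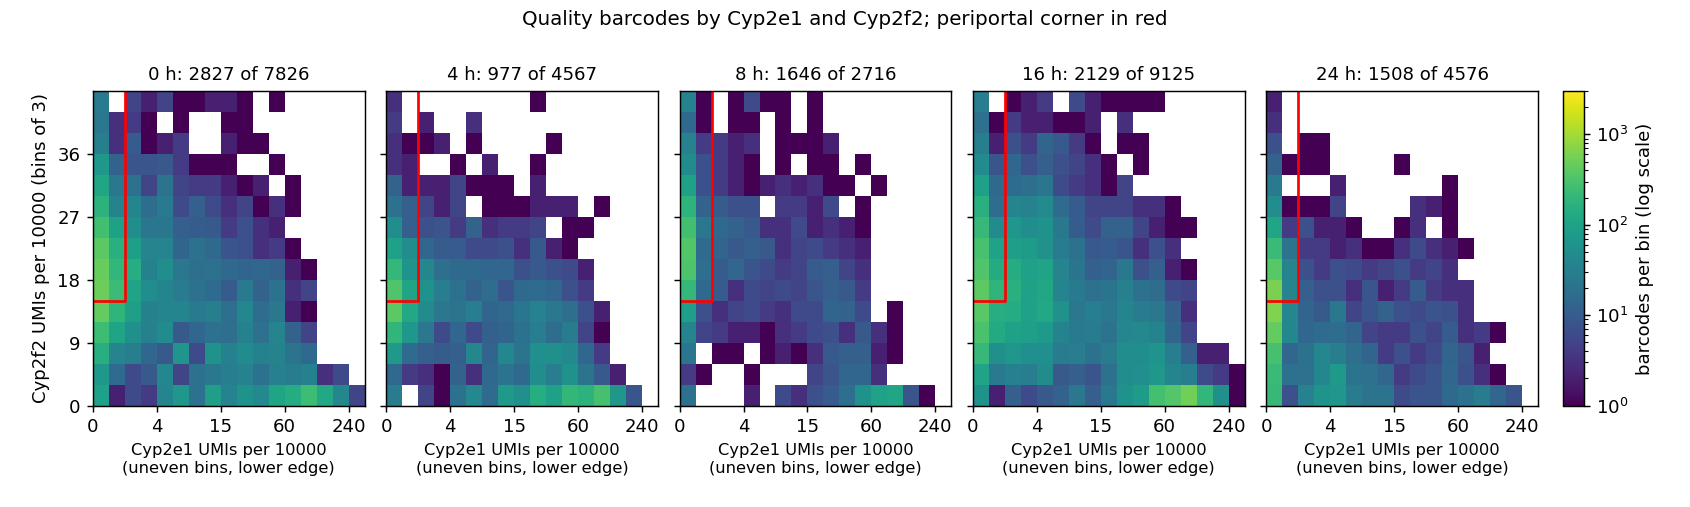
Quality barcodes of each library by Cyp2e1 (horizontal, uneven bins) and Cyp2f2 (vertical, bins of 3 UMIs per 10000), with the colour giving the number of barcodes per bin on a log scale. The red lines enclose the periportal corner, which held 2827, 977, 1646, 2129 and 1508 barcodes in time order, and the 24 h panel has few barcodes at high Cyp2e1.

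Members near the limits formed a continuous range with non-members. Barcodes with 15 to 20 Cyp2f2 UMIs per 10000 numbered 1159, 640, 441, 923 and 937 inside the rule, and 885, 709, 125, 825 and 1037 barcodes missed it by having 10 to 15. Pck1 stood at 1038 CPM just inside and 1012 CPM just outside in the fed library, and at 5059 and 5229 CPM at 24 h. Hal, the histidine ammonia-lyase of the portal zone, was at 404 and 401 CPM in the fed library. The Cyp2f2 limit therefore cuts a range and does not bound a cell type.

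The label was checked against genes that the rule did not use. Periportal barcodes were compared with Cyp2e1-high barcodes of the same library, those with at least 15 Cyp2e1 and under 15 Cyp2f2 UMIs per 10000 (1389, 1604, 464, 2364 and 255 in time order). Because the rule sorted the same cells, these ratios are descriptions without a test. A gene was counted as higher or lower when it differed at least 2-fold and reached 50 CPM in either class or library. By that count 1.01% of all genes were higher in fed periportal barcodes, then 1.39, 1.19, 1.57 and 0.666% at 4, 8, 16 and 24 h. Of the portal landmarks, 9 of 15, 9 of 15, 8 of 14, 8 of 14 and 4 of 14 were higher in time order. Of the central landmarks, 12 of 14, 12 of 14, 11 of 13, 12 of 14 and 9 of 13 were lower, beside 2.19, 2.5, 2.49, 2.63 and 1.37% of all genes. Against Cyp2e1-high barcodes the landmarks thus went with the label, and fewest passed 2-fold at 24 h. Against all other hepatocyte barcodes (outside the rule, with 20 or more Alb UMIs per 10000) the separation was smaller. There 0, 0, 2, 0 and 0 portal landmarks were higher, and 9 of 13, 10 of 13, 10 of 13, 9 of 12 and 3 of 9 central landmarks were lower. The central landmarks thus bore out the label least at 24 h.

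Ctsc, the lysosomal protease cathepsin C, was among the portal genes with the largest ratios. It stood at 234, 212, 84.6, 347 and 214 CPM in periportal barcodes and at 19.2, 15.6, 2.49, 26.0 and 27.4 CPM in Cyp2e1-high ones, in time order. Cdh1, which encodes E-cadherin, read 92.1, 84.8, 46.6, 74.7 and 28.0 CPM against 12.9, 6.70, 3.12, 7.46 and 2.38 CPM. Ctsc was lowest at 8 h and Cdh1 at 24 h. The smallest log2 ratio to the Cyp2e1-high class was 2.97 (2.55 to 3.42) for Ctsc, at 24 h, and 2.84 (2.49 to 3.21) for Cdh1, in the fed library. Hsd17b13, an enzyme of the lipid droplet surface, was at 524, 757, 686, 609 and 987 CPM, and Pigr, the receptor that carries immunoglobulin A into bile, at 1125, 1876, 1622, 1221 and 2297 CPM. These 2 markers were highest at 24 h, and there their log2 ratio to the Cyp2e1-high class was smallest, 1.13 (1.03 to 1.24) for Hsd17b13 and 0.47 (0.41 to 0.53) for Pigr. In the fed library the same ratios were 1.79 (1.69 to 1.90) and 1.26 (1.20 to 1.32). Other genes among the 10 most enriched in fed periportal barcodes were Aldh1b1, Hsd17b6, Cryl1, Etnppl, Sds, Hal and Inhba.

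Marker transcripts of endothelial, Kupffer, stellate and leukocyte cells were near 0 in periportal barcodes, and those of the cholangiocyte list were higher. The summed level of 8 endothelial markers was 2.38 to 11.3 CPM over the libraries, that of 8 Kupffer cell markers 0.0434 to 6.41 CPM, of 6 stellate cell markers 0.954 to 5.01 CPM and of 6 leukocyte markers 0.0434 to 1.0045 CPM. The 6 cholangiocyte markers summed to 20.2 to 95.2 CPM. The 7 hepatocyte markers summed to 91780 to 131851 CPM. Within the cholangiocyte list, Sox9 was at 18.5 to 87.0 CPM and Spp1 at 1.64 to 11.8 CPM, while the defining keratin Krt19 and Epcam were at 0 to 0.217 and 0 to 0.347 CPM.

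**Figure D2:**
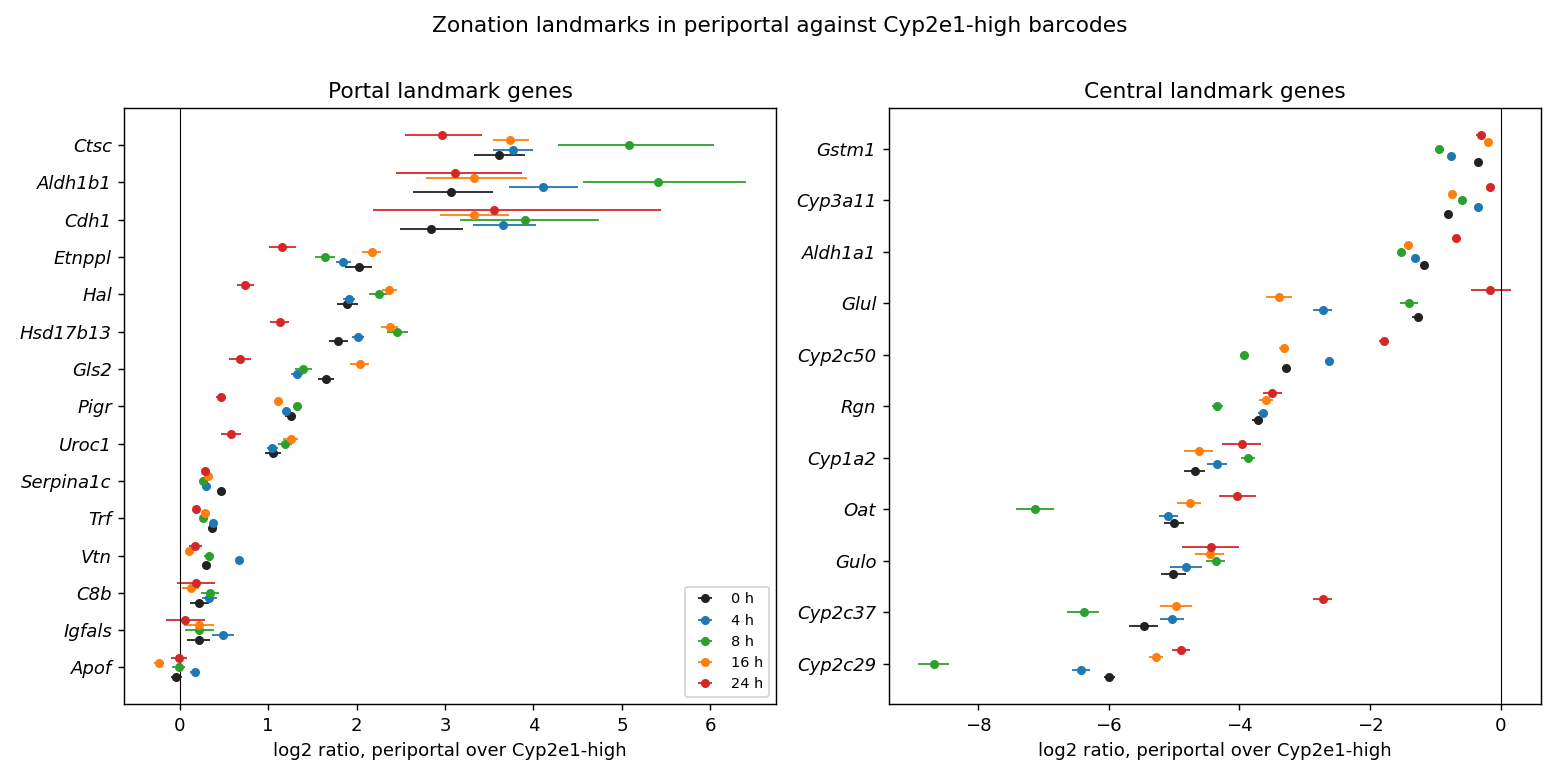
Log2 ratio of periportal to Cyp2e1-high barcodes for portal landmark genes (left) and central landmark genes (right), with 1 point a library, coloured by hours of fasting, and 95% counting intervals. Ctsc, Aldh1b1 and Cdh1 lie farthest to the right, and the 24 h points of Pigr, Hal and Gls2 lie closer to 0 than those of the other libraries.

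The first group of results concerns gluconeogenesis. Pck1 encodes the cytosolic phosphoenolpyruvate carboxykinase that commits oxaloacetate to glucose (chr2:173153048-173159273, plus strand, GRCm38). Its level in periportal barcodes was 1035 CPM (1019 to 1051) in the fed library. In the fasted libraries it was 4472 (4435 to 4509), 3766 (3741 to 3791), 4441 (4395 to 4488) and 4897 CPM (4861 to 4933), in time order. All 4 fasted libraries lay above the fed one, by 4.32-, 3.64-, 4.29- and 4.73-fold, and the rise was already in place at 4 h. Among the 4 fasted libraries the highest was 24 h and the lowest 8 h.

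The bases before the Pck1 start are shown because a cyclic AMP response element, the sequence through which glucagon signals act on this gene, lies in them. The window holds the 250 bases before the RefSeq start (chr2:173152823-173153072, plus strand, GRCm38.p6), with the element in capitals.
Pck1: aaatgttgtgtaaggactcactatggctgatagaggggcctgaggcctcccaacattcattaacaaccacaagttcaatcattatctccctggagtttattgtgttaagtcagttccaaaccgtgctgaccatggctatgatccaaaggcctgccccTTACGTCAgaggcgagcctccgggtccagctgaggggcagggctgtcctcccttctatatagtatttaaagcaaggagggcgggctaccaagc
The letters searched were TGACGTCA and TTACGTCA with the reverse of the latter, TGACGTAA, so that both strands were covered. The match lay at positions -93 to -86 from the start. Of 32851 RefSeq promoter windows of the same length, 651 (1.98%) held 1 of these 8-base words. Of the 14 gluconeogenic genes with a RefSeq window, Pck1 was the one with a match. A match is a string of letters in this window and was not measured as a bound site.

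The other 3 core enzymes each had a time course of their own. G6pc, the glucose-6-phosphatase that releases free glucose, stood at 458 CPM (448 to 469) in the fed library, then 389 (378 to 400), 765 (754 to 777), 901 (880 to 922) and 674 CPM (660 to 687). At 4, 8, 16 and 24 h it was at 0.849, 1.67, 1.97 and 1.47 of the fed level. Fbp1, the fructose-1,6-bisphosphatase, was at 1189, 791, 696, 1025 and 976 CPM, below the fed library at every fasted time, and it was lowest at 8 h. Pcx, the mitochondrial pyruvate carboxylase, was at 246, 242, 292, 225 and 326 CPM. Its largest log2 ratio to fed was 0.40 (0.34 to 0.46), at 24 h. None of G6pc, Fbp1 and Pcx reached a 2-fold difference from fed in any library. For G6pc at 16 h this depended on the setting, with a log2 ratio of 0.70 to 1.02 over the alternatives and 0.97 here.

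Of the 15 genes of the gluconeogenesis list, 3, 3, 2 and 2 were at least 2-fold higher than fed, by time of fasting. Ppargc1a and Foxo1 among them were under 50 CPM in the fed library and were counted through their fasted levels. Over all genes, 5.6, 8.44, 3.26 and 6.16% were higher at these times, and 6.46, 12.5, 4.18 and 10.1% lower. The list median of the log2 ratio was 0.16, 0.23, 0.28 and 0.53, beside -0.08, -0.07, -0.03 and -0.08 over all 6875 genes with a mean of at least 10 CPM. Foxo1, the transcription factor held out of the nucleus by insulin signalling, was at 28.2 CPM in the fed library and 82.6, 96.7, 32.3 and 69.5 CPM in the fasted ones. Ppargc1a, a coactivator of gluconeogenic genes, was at 27.5, 63.6, 36.5, 44.2 and 41.7 CPM, and it passed 2-fold at 4 h only. That call was lost with a mitochondrial limit of 15% (log2 ratio 0.95), and with a Cyp2f2 limit of 30, which left 30 barcodes at 4 h, the ratio was -0.29. Klf15, a regulator of amino acid use, was at 107, 174, 218, 151 and 185 CPM, and Gk, the glycerol kinase, at 99.5, 162, 115, 222 and 197 CPM. The one member that was 2-fold lower was Slc37a4, the glucose-6-phosphate transporter, with 105 CPM at 16 h against 228 CPM fed and 194 to 254 CPM in the other libraries.

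Pck1 was higher in periportal than in Cyp2e1-high barcodes in every library, but by less in the fasted ones. The log2 ratio was 1.13 (1.07 to 1.19) in the fed library and 0.60, 0.19, 0.95 and 0.38 at 4, 8, 16 and 24 h. Cyp2e1-high barcodes rose from 473 CPM to 2951, 3290, 2292 and 3768 CPM. For G6pc the ratio was 1.08 (0.99 to 1.17) in the fed library and 0.52, 0.37, 0.68 and 0.94 in the fasted ones. Fbp1 kept a narrow range of 0.48 to 0.64. Cyp2e1-high barcodes were shallower, with medians of 3473, 4087, 11868, 4016 and 6689 UMIs against 6503, 16776, 16519, 4593 and 11623.5. The part of depth in these ratios was not tested.

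**Figure D3:**
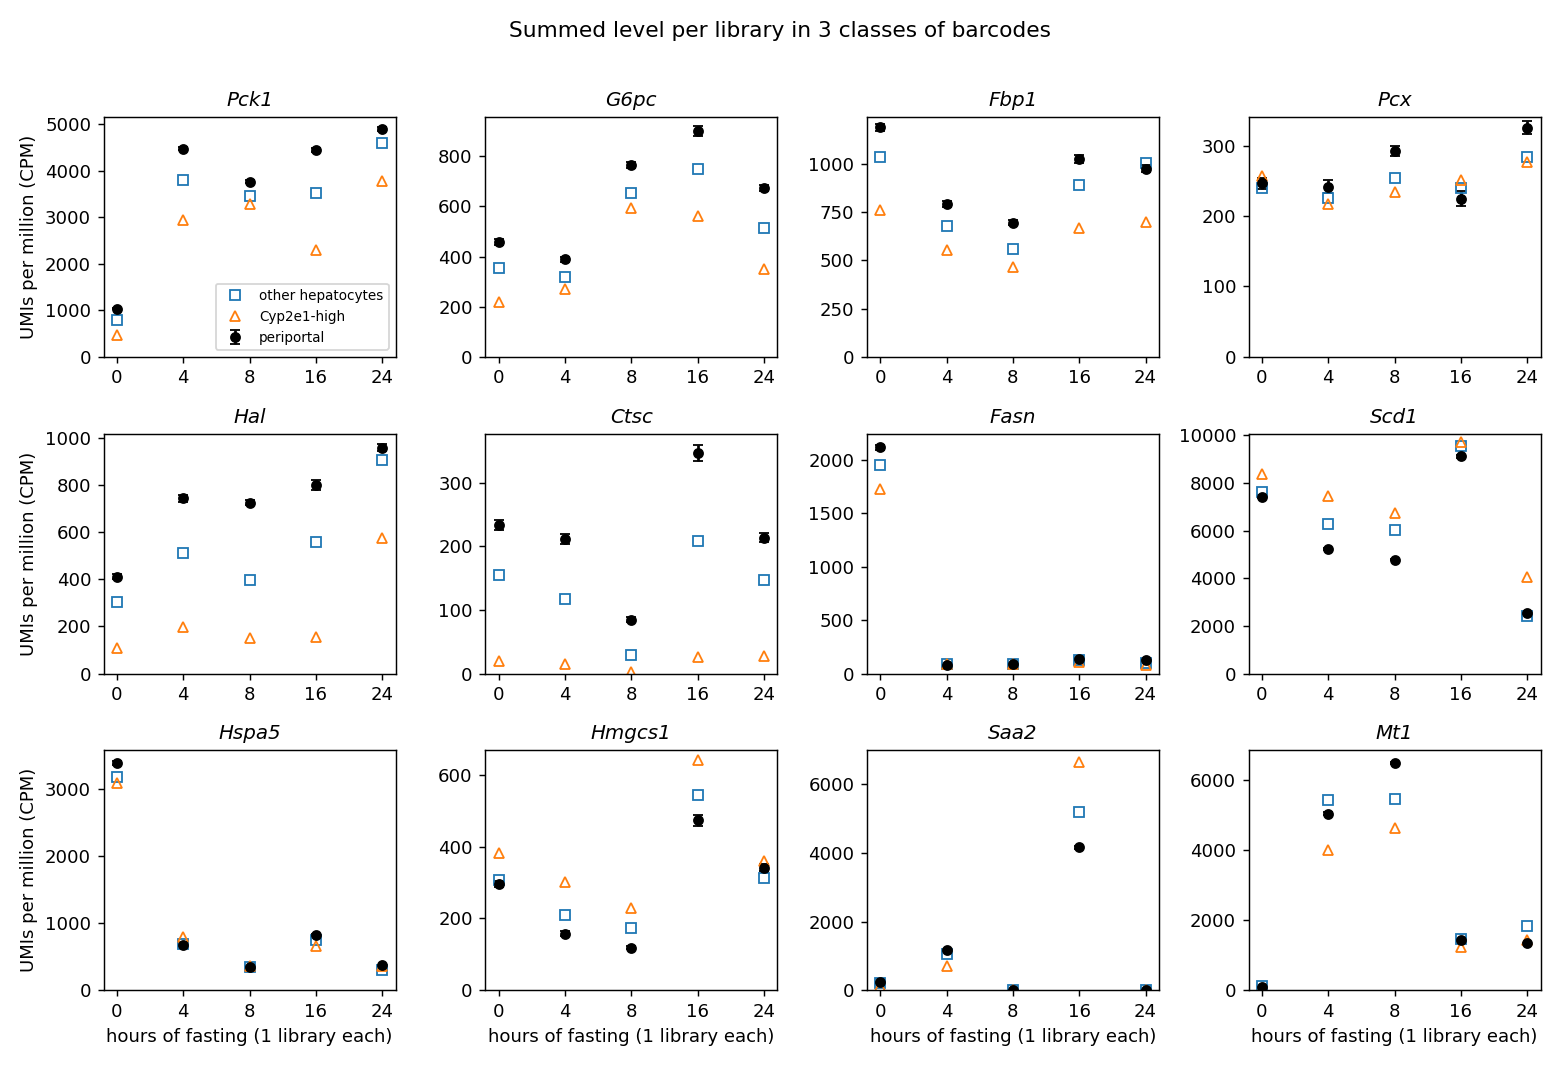
CPM of 12 genes against hours of fasting in periportal barcodes (black, with 95% counting intervals), in all other hepatocyte barcodes (blue squares) and in Cyp2e1-high barcodes (orange triangles), 1 library a time point, time points evenly spaced. Periportal Pck1 steps from 1035 CPM fed to between 3766 and 4897 CPM, whereas Fasn and Hspa5 step down, and Saa2 is high at 16 h with 4166 CPM.

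Amino acid breakdown followed a different time course, with 14 of 25 genes (56%) at their highest level in the 8 h library, against 24.4% of all genes with a mean of at least 10 CPM. Of the 25 listed genes, 2, 8, 0 and 4 were at least 2-fold higher than fed in time order, and none was 2-fold lower. Of all genes, 5.6, 8.44, 3.26 and 6.16% were higher, so the count at 4 h was near that share. Got1, the cytosolic aspartate aminotransferase, was at 129 CPM in the fed library and 558, 1313, 225 and 459 CPM in the fasted ones. Sds, the serine dehydratase that turns serine into pyruvate, was at 152, 328, 599, 213 and 400 CPM. Both genes were highest at 8 h and lowest among the fasted libraries at 16 h. With free RNA subtracted the Sds calls at 4 and 24 h were lost (log2 ratios 0.94 and 0.89). Prodh, the proline dehydrogenase, was at 68.8, 127, 205, 36.3 and 162 CPM, and Cbs, which starts the breakdown of homocysteine, at 195, 269, 525, 249 and 198 CPM. Hal had a small spread among the fasted libraries, with 411 CPM fed and 743, 724, 800.2 and 959 CPM fasted, and passed 2-fold at 24 h. Tat, the tyrosine aminotransferase, was at 1745, 2450, 3517, 1498 and 1352 CPM, and its value at 24 h was below that of the fed library.

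Urea cycle transcripts differed most between the 8 and 16 h libraries. From 8 to 16 h, 3 of the 8 genes were at least 2-fold lower (Ass1, Asl and Slc25a15), beside 10.8% of all genes, and the list median was -0.64 on the log2 scale, beside 0.07 over all genes. Of the 8 genes, 2 were 2-fold higher than fed in the 8 h library (8.44% of all genes), 1 was 2-fold lower in the 16 h library (4.18%), and 0 passed 2-fold in the others. Ass1, the argininosuccinate synthase, was at 2588, 3373, 5788, 1469 and 2911 CPM, and the ornithine carrier Slc25a15 at 219, 320.5, 459, 202 and 243 CPM. Both were highest at 8 h, 2.24- and 2.1-fold above fed. Asl, the next enzyme of the cycle, was at 519, 492, 609, 233 and 699 CPM. Cps1, which fixes ammonia in the first step, kept between 3190 and 4519 CPM.

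Genes of glycolysis and fat synthesis were often lower in the fasted libraries. Of the 16 listed genes, 13 reached 50 CPM in either library at each time. In time order, 9, 9, 11 and 12 were at least 2-fold lower than fed, and none was 2-fold higher. Of all genes, 6.46, 12.5, 4.18 and 10.1% were lower and 5.6, 8.44, 3.26 and 6.16% higher. The list medians were -1.30, -1.53, -2.26 and -2.32 on the log2 scale, beside -0.08, -0.07, -0.03 and -0.08 over all genes. Fasn, the fatty acid synthase, fell from 2119 CPM (2096 to 2142) to 78.0, 93.9, 139 and 131 CPM. Elovl6, which lengthens palmitate, fell from 865 CPM to 51.7, 22.03, 68.1 and 69.1 CPM, and Acly, the ATP citrate lyase, from 1969 CPM to 430.2, 157, 268 and 196 CPM. For Fasn the 4 h library was already the lowest. Thrsp, a regulator of lipogenesis, reached its lowest level at 16 h, with 3728, 961, 447, 167 and 468 CPM in time order. Srebf1, the insulin-driven transcription factor of lipogenesis, was at 460, 91.5, 22.5, 68.1 and 76.5 CPM. Scd1, the stearoyl-CoA desaturase, went apart from the list with 7432, 5239, 4776, 9115 and 2528 CPM, and was highest at 16 h.

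In the list of fat oxidation and ketogenesis, 1, 1, 2 and 5 of 21 genes were at least 2-fold higher than fed at the successive times, beside 5.6, 8.44, 3.26 and 6.16% of all genes. At 4 and 8 h the count was thus near or below that of all genes. The one at 4 and 8 h was Angptl4, which was under 50 CPM in the fed library and was counted through its fasted levels. Those at 24 h were Cpt1a, Cyp4a10, Cyp4a14, Ppara and Angptl4. 2 genes were lower at 4 h, beside 6.46% of all genes, and the list medians were -0.10, 0.22, 0.37 and 0.70. Cpt1a, the gate of fatty acids into mitochondria, was at 123, 211, 234, 314 and 477 CPM, each library above the one before it. Cyp4a14, a fatty acid hydroxylase controlled by PPAR-alpha, was at 685, 321, 1080.0, 919.9 and 3639 CPM, and Cyp4a10 at 386, 154, 454, 279 and 1774 CPM. Both were 2-fold lower at 4 h and 4.6- to 5.31-fold higher at 24 h. For Cyp4a14 the 4 h call (log2 ratio -1.10) was lost with TMM and median-of-ratios scaling (-0.9996 and -0.99) and with a Cyp2f2 limit of 30 (-0.48). Angptl4, a secreted inhibitor of lipoprotein lipase, was at 8.69, 142, 335, 80.9 and 155 CPM, so it was 9.3- to 38.6-fold above fed in the fasted libraries. Acot3, a peroxisomal thioesterase and the gene with the largest rise at 24 h, was at 5.90, 8.98, 6.11, 27.7 and 137 CPM. Pdk4 stayed between 1.0045 and 2.08 CPM.

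Cholesterol synthesis genes were lower most often at 8 h. Of all genes, 6.46, 12.5, 4.18 and 10.1% were at least 2-fold lower than fed at the successive times. Of the 14 listed genes, 9, 12, 3 and 7 were lower and none was higher, with medians of -1.16, -1.71, -0.58 and -1.01. Not all followed this course: Fdps, the farnesyl diphosphate synthase, was at 227, 92.3, 113, 80.6 and 71.6 CPM and lowest at 24 h. Insig1, an anchor of the sterol sensor, was at 1193, 408, 178, 566 and 294 CPM. For this gene the 16 h library lay nearer to fed than the 8 h library. Hmgcs1 at 16 h, with 473 CPM, was above the 295 CPM of the fed library.

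**Figure D4:**
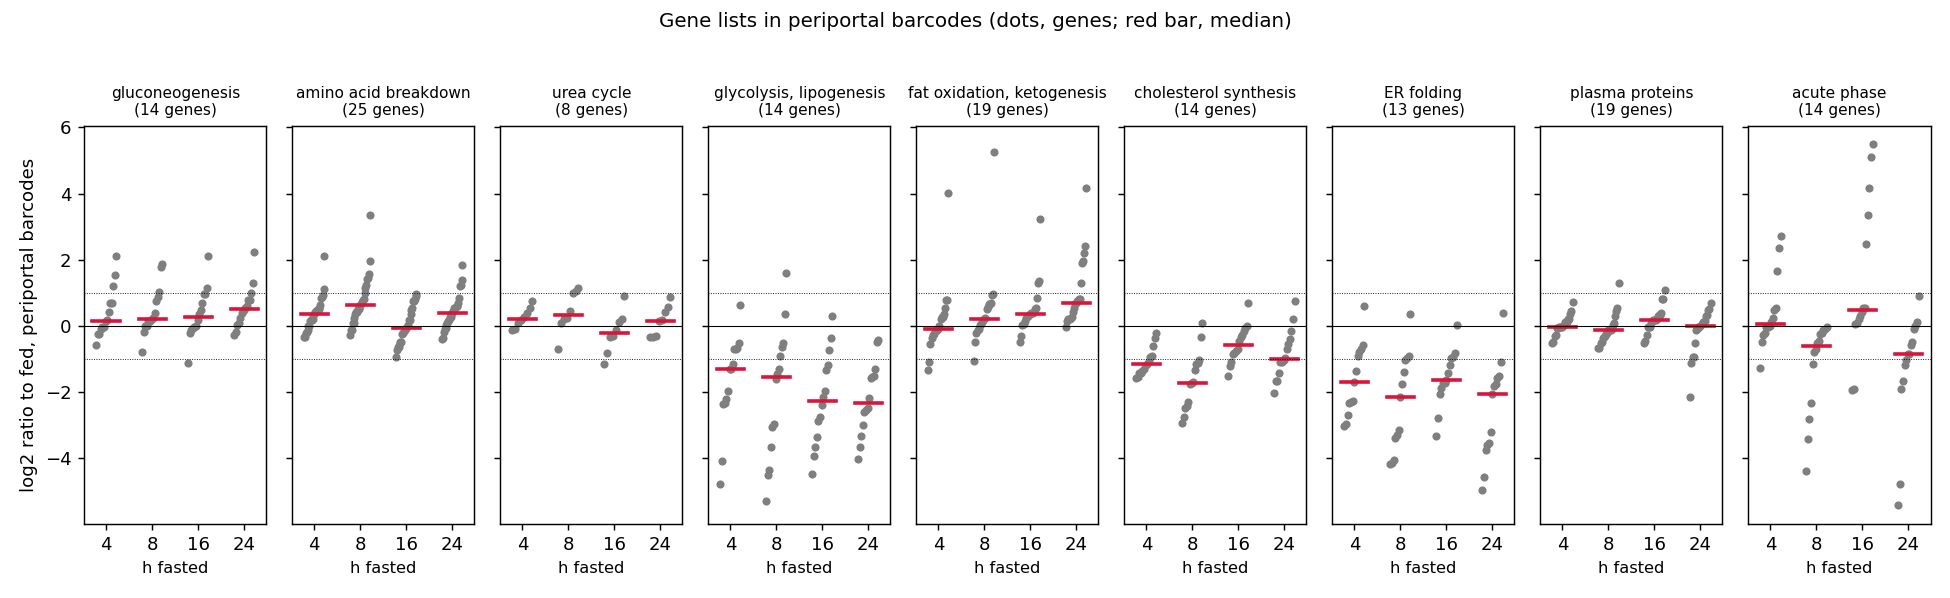
Log2 ratio to the fed library of the genes of 9 lists in periportal barcodes (grey dots, genes with a mean of at least 10 CPM) at 4, 8, 16 and 24 h, with the median as a red bar and dotted lines at 2-fold. The medians of lipogenesis, cholesterol synthesis and ER folding lie below 0, and the median of amino acid breakdown is highest at 8 h and that of fat oxidation at 24 h.

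In each fasted library, most of the listed chaperones and folding factors of the endoplasmic reticulum were lower too. Of 13 members, 8, 10, 9 and 12 were at least 2-fold lower than fed in time order, beside 6.46, 12.5, 4.18 and 10.1% of all genes. The list medians were -1.69, -2.16, -1.63 and -2.07, beside -0.08, -0.07, -0.03 and -0.08 over all genes. Hspa5, the main chaperone BiP (chr2:34771970-34777547, plus strand, GRCm38), was at 3387 CPM (3358 to 3416) in the fed library. The fasted libraries held 675 (660 to 689), 348 (340 to 355), 820.4 (801 to 841) and 372 CPM (362 to 382). The fasted levels were thus 0.103 to 0.242 of the fed level. Hsp90b1, the chaperone GRP94, was at 2078, 812, 466, 673 and 496 CPM. Creld2, a secreted chaperone-like protein, was at 203, 24.8, 11.53, 20.5 and 8.54 CPM, and Sdf2l1, a partner of BiP, at 150, 23.4, 8.41, 21.97 and 4.85 CPM. For these genes 8 and 24 h lay below 4 and 16 h. Herpud1, which helps to remove misfolded proteins, was the exception, with 712 CPM in the fed library and 1086, 918, 729 and 938 CPM in the fasted ones.

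Promoters of these chaperones are shown because several share the ER stress response element. Hspa5 (chr2:34771840-34772089, plus strand), Hsp90b1 (chr10:86705445-86705694, minus strand) and Creld2 (chr15:88819396-88819645, plus strand) are given from RefSeq, GRCm38.p6, as the 250 bases before the start, with each match in capitals.
Hspa5: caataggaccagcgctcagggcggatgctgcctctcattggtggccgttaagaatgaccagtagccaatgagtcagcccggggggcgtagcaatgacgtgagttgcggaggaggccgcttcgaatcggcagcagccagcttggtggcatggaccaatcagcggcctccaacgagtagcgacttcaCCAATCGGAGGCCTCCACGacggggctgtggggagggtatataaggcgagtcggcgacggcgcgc
Hsp90b1: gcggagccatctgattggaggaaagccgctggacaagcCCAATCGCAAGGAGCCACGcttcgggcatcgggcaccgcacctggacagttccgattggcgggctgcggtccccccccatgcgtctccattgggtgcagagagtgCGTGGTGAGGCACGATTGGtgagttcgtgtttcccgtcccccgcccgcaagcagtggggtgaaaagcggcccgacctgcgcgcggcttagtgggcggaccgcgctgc
Creld2: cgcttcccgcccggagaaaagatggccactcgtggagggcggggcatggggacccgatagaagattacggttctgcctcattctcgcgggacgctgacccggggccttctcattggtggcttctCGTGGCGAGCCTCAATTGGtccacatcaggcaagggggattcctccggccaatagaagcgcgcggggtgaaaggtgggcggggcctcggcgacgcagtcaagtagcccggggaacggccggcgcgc
The motif searched was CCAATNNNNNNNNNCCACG, or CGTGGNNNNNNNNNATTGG on the other strand. RefSeq windows were found for 11 of the 13 genes, and 6 of them held it: Hspa5, Hsp90b1, Creld2, Dnajc3, Pdia6 and Calr. Hsp90b1 held 2 matches, at -212 to -194 and -107 to -89. Of all 32851 windows, 37 (0.113%) held the motif. At 8 h the 6 genes with a match stood at 0.0568 (Creld2) to 0.536 (Calr) of fed. The 5 without one (Sdf2l1, Dnajb11, Pdia4, Xbp1 and Herpud1) stood at 0.0559 (Sdf2l1) to 1.29 (Herpud1), so the values overlapped.

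Of 19 plasma protein genes, 0, 1, 1 and 0 were at least 2-fold higher than fed at 4, 8, 16 and 24 h, and 2 were lower at 24 h. These shares were near or below those of all genes, 5.6, 8.44, 3.26 and 6.16% higher in time order and 10.1% lower at 24 h. From 16 to 24 h, 6 of the 19 were lower (Serpina1e, Fga, Fgb, Fgg, C8a and C9), beside 5.9% of all genes. Ttr, the carrier of thyroxine, kept between 6216 and 7107 CPM, and Ahsg, fetuin-A, between 4746 and 4939 CPM. Serpina1e, an alpha-1-antitrypsin gene, was an exception with 4417, 4754, 10966, 5855 and 999.5 CPM. It belongs to a family of near-identical copies, so its counts are uncertain. Fgb, the fibrinogen beta chain, was 2.14-fold higher than fed at 16 h with 6910 CPM.

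Acute phase genes differed between libraries in both directions. Saa2, a serum amyloid A gene, was at 231, 1175, 11.1, 4166 and 5.40 CPM in time order, the widest range over the 5 libraries of all genes tested. Saa1 followed it with 412, 1295, 38.4, 4171 and 14.96 CPM, and the 2 genes share near-identical sequence. Lcn2, the iron-binding lipocalin, was at 8.38, 54.7, 7.28, 288 and 15.6 CPM, and Saa3 at 5.20, 4.45, 4.42, 236 and 3.48 CPM. These 4 genes were highest at 16 h, and Saa1 and Saa2 lowest at 24 h, with no steady course over time. Saa4 and Steap4 went the other way at 16 h, with 469.6 and 220.1 CPM fed and 123 and 59.3 CPM at 16 h. Other hepatocyte barcodes of the same libraries showed the same order for Saa2, with 207, 1051, 16.5, 5190 and 12.4 CPM. Over all genes, 5.6, 8.44, 3.26 and 6.16% were at least 2-fold higher than fed in time order and 6.46, 12.5, 4.18 and 10.1% lower. Of the 15 listed genes, 12, 11, 14 and 11 reached 50 CPM in either library. Of these, 3, 0, 5 and 0 were higher at the successive times and 1, 4, 2 and 6 lower. Lcn2, Saa3 and Apcs were counted as higher through their fasted levels, being under 50 CPM in the fed library. Cxcl1, a chemokine, was high in the fed library alone, with 144, 8.90, 0.434, 17.6 and 9.77 CPM.

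Genes driven by glucocorticoids and stress were highest at 8 h in 6 of 10 cases, against 24.4% of all genes. Among all genes, 5.6, 8.44, 3.26 and 6.16% were at least 2-fold higher than fed in time order and 6.46, 12.5, 4.18 and 10.1% lower. Of the 11 listed genes, 7, 8, 5 and 6 reached 50 CPM in either library. From these, 5, 6, 3 and 4 were higher and 1 was lower at each time. Of those that were higher, Mt1 was the one that reached 50 CPM in the fed library, and the others were counted through their fasted levels. Mt1, a metal-binding metallothionein, was at 101 CPM in the fed library and 5028, 6478, 1433 and 1333 CPM in the fasted ones. Mt2 was at 28.3, 1831, 1775, 456 and 368 CPM. Cdkn1a, the cell cycle inhibitor p21, was at 1.84, 87.5, 269.6, 0.879 and 6.97 CPM, so that the 16 h library was below the fed one. Fkbp5, a glucocorticoid target, was at 21.2, 137, 299.7, 36.3 and 128 CPM, and Igfbp1, an insulin-repressed binding protein, at 20.7, 264, 226, 113 and 61.4 CPM. Gadd45a went the other way, with 50.003, 6.99, 1.04, 10.8 and 4.10 CPM. Outside the list, 2 genes with a wide range over the libraries were also highest at 8 h. Elovl3, a fatty acid elongase, was at 3.05, 181, 729, 24.4 and 13.2 CPM, and Selenbp2 at 173, 79.9, 714, 47.8 and 10.7 CPM.

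Clock genes are given beside these because the hour of day differed. Dbp, an output of the clock, was at 51.5, 5.48, 1.73, 86.4 and 58.6 CPM in time order, at hours 13, 17, 21, 5 and 13. Arntl, which encodes the clock activator BMAL1, was at 5.77, 33.1, 30.2, 5.15 and 6.83 CPM, and Nr1d1, its repressor, at 12.2, 4.13, 3.47, 113 and 8.40 CPM. In the 24 h library, taken at the same hour as the fed one, these genes stood at 1.14, 1.18 and 0.69 of the fed level. Per2, another clock repressor, was an exception, with 60.7 CPM fed and 19.6 CPM at 24 h. Of 12 immediate early genes, which respond fast to stimulation, 8, 5, 6 and 5 reached 50 CPM in either library, in time order. Against fed, 3, 0, 1 and 0 were at least 2-fold higher and 1, 2, 0 and 2 lower. Among all genes, 5.6, 8.44, 3.26 and 6.16% were higher and 6.46, 12.5, 4.18 and 10.1% lower. Egr1, Ier2 and Btg2 were higher at 4 h, all from under 50 CPM fed. With a mitochondrial limit of 15% the calls of Egr1 and Ier2 were lost (log2 ratios 0.83 and 0.96). With a Cyp2f2 limit of 30, which left 30 barcodes at 4 h, the Btg2 ratio turned from 1.27 to -1.51. Nr4a1, which is not in that list, was at 0.888, 11.7, 1.08, 51.0 and 1.30 CPM. Whether the handling of a library moved these genes was not tested.

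Comparison of neighbouring times showed where the profile moved most. From 4 to 8 h, 1.12% of genes were higher and 2.14% lower. From 8 to 16 h, 10.8% were higher and 10.8% lower, and from 16 to 24 h, 6.34% were higher and 5.9% lower. Against fed, 164, 252, 96 and 182 genes were higher and 189, 372, 123 and 299 lower, by time of fasting. The 16 h library was thus the fasted library with the fewest genes past 2-fold, and it was also the shallowest. The split between higher and lower depended on the scaling. With TMM scaling, which sets the bulk of genes level, the share of called genes that were higher was 57.2, 53.6 and 50.6% at 4, 8 and 24 h, in place of 46.5, 40.4 and 37.8%. From 8 to 16 h, TMM gave 228 genes higher and 450 lower in place of 326 and 326, and from 16 to 24 h 254 and 124 in place of 186 and 173.

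The response of periportal barcodes was also set beside that of all other hepatocyte barcodes, quality barcodes outside the rule with at least 20 Alb UMIs per 10000. These numbered 4999, 3590, 1062, 6995 and 3068 in time order. At 24 h the genes whose ratio to fed differed most upward were led by Cyp2c genes. Cyp2c37, Cyp2c50 and Cyp2c29 are central landmarks. Cyp2c37, a cytochrome P450, was at 11.9, 19.1, 6.29, 17.8 and 66.6 CPM in periportal barcodes and at 150, 232, 274, 204 and 102 CPM in the others. The log2 ratio of 24 h to fed was 2.49 (2.26 to 2.72) in the first and -0.55 (-0.63 to -0.47) in the second. Cyp2c50 read 215, 331, 117, 195 and 396 CPM against 792, 962, 1096, 843 and 444 CPM, and Cyp2c54 and Cyp2c29 and Mup17 were the other 3 of the 5. The gap between the classes was thus narrowest at 24 h, in the library where few barcodes held Cyp2e1. For central landmarks the median log2 ratio of periportal to other barcodes was -0.62 at 24 h and -2.28 in the fed library. Summed, they stood at 9206 CPM in periportal and 8109 CPM in other barcodes at 24 h, against 7147 and 11286 CPM fed. Central genes therefore went with the periportal label only weakly at 24 h. With an assumed 10% of free RNA subtracted, the Cyp2c37 ratio was 4.51. Downward, the genes were Saa2, Saa1, Sds, Psmb6 and Eci1. Sds rose by 1.39 (1.33 to 1.46) in periportal and 2.21 (2.15 to 2.28) in the other barcodes.

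Single periportal barcodes varied in how much of their RNA was Alb, the transcript of serum albumin. At 4 and 24 h the Alb share had 2 humps. A limit of 12% of non-mitochondrial UMIs was chosen after the values were seen. At 24 h the low point between the humps was the bin from 11%, with 31 barcodes. At 4 h it was the bin from 10%, with 18 barcodes, and the next bin, below the limit, held 37, so there the limit cuts into the second hump. Barcodes at or above it numbered 343 (12.1% of periportal barcodes), 137 (14.0%), 1 (0.0608%), 442 (20.8%) and 460 (30.5%) in time order.

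**Figure D5:**
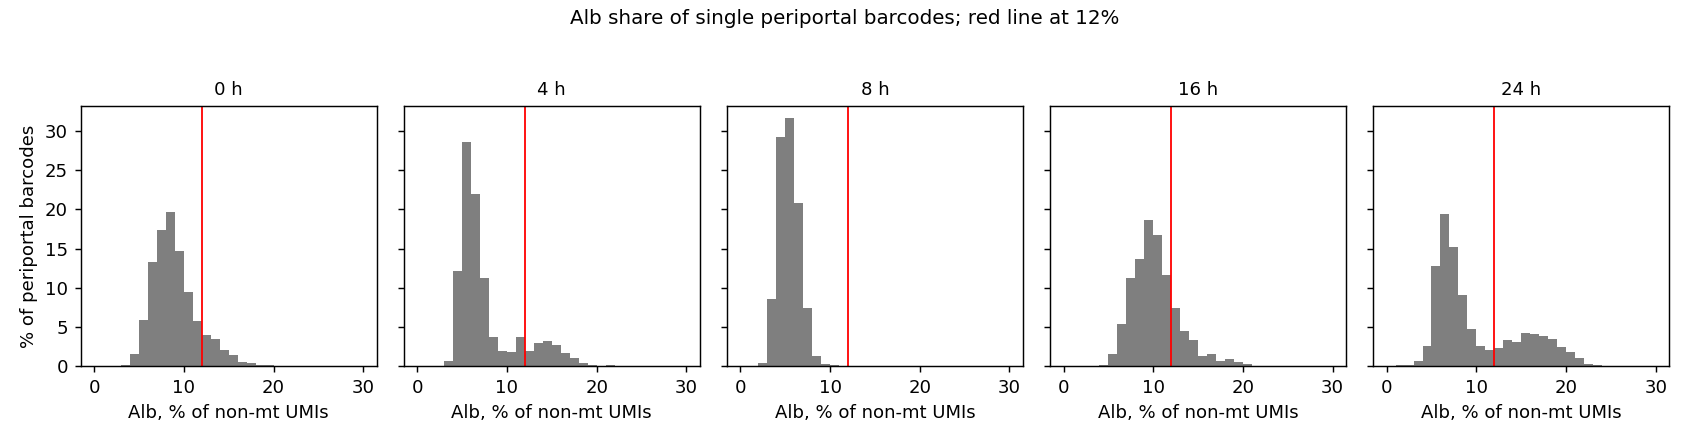
Distribution of the Alb share of non-mitochondrial UMIs over periportal barcodes in each library, as a percentage of the barcodes per bin of 1 percentage point, with a red line at 12%. The 4 and 24 h panels have a second hump, which at 4 h begins to the left of the line. To the right of it lie 14.0% of the barcodes at 4 h, 30.5% at 24 h and 1 barcode at 8 h.

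The barcodes rich in Alb held fewer genes and less of many transcripts. At 24 h, 1224 of 2808 genes were at least 2-fold lower in them and 108 higher, and at 4 h 942 of 2738 were lower and 105 higher. Pck1 was 1 of the genes with a lower level. At 24 h their median was 1833 genes and 22.1% mitochondrial UMIs, against 3113.5 genes and 16.8% in the rest. At that time Pck1 was at 2282 CPM in them and 5717 CPM in the rest. In the fed, 4 and 16 h libraries it was at 429, 2092 and 3368 CPM in them and 1089, 4700 and 4632 CPM in the rest. G6pc differed little, with 750 and 650 CPM at 24 h. At 24 h the genes highest in the Alb-rich barcodes were Lars2 (1851 against 289 CPM), Fetub, Gm26917, Gm42418 (23594 against 6386 CPM), Cyp2d10, Vtn, Ambp and Cfb. Lars2, Gm26917 and Gm42418 are transcripts that often collect ribosomal RNA reads. The 8 lowest genes included Rps24 (214 against 1407 CPM), Rps12 (77.9 against 508 CPM) and Rpl35 (81.3 against 499.6 CPM), which encode ribosomal proteins. Other ribosomal protein genes were not counted. The mitochondrial share, gene number and depth moved with this split, and their part in it was not tested. Without the Alb-rich barcodes Pck1 was 2.39 on the log2 scale above fed at 24 h, where all periportal barcodes gave 2.24 (2.22 to 2.27), and 246 genes were higher and 281 lower than fed.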

How the data were processed

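The authors deposited 1 matrix of raw UMI counts (genes by barcodes), not normalized. Cell Ranger 6.0.1 is named per the file headers and the submitters' processing notes, which also name the build mm10. Libraries were made with the 10x Genomics 3' chemistry, per the labels' protocols. The deposited barcode table gave the library and no cell type. The rule limits were applied to all UMIs of a barcode. UMIs were summed over the members of a library and divided by the non-mitochondrial sum. Cyp2f2, Cyp2e1, mitochondrial and haemoglobin genes were left out of counts of genes. CPM intervals are exact Poisson, and log2 ratio intervals are exact conditional binomial, at 95%. Doublets were not called by a tool. Gene positions are from GENCODE M21, in which 99.8% of the 32285 gene IDs were found. The script was tested on simulated data.

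The rule, the gene lists and the comparisons were chosen with earlier results of these data known. Named genes were the 4 core enzymes, list members, the 5 highest and 5 lowest per fasted library against fed, the 10 with the widest range, the 5 that differed most each way from other hepatocytes at 24 h, and the 10 most enriched over Cyp2e1-high barcodes. The genes named for the Alb split were chosen after their values were seen, from the 8 highest and lowest. No column of per-sample values was left unused. TMM factors came from edgeR 4.0.16 in R 4.3.3. Other steps used pandas 2.3.3, scipy 1.17.1, matplotlib 3.10.9 and numpy 2.4.6 under Python 3.11.15. Some genes of the lists are not reported here by name, but remain in the list counts and medians.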

Additional observations from a re-analysis of the deposited data

Results flagged for a closer look

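Barcodes under 2% mitochondrial UMIs were outside the rule. At 8 h, 9 of 576 such barcodes met both gene limits (1.56%), above the 4 of 2170 (0.184%) of the fed library. They had a median of 1319 UMIs. In the 4, 16 and 24 h libraries the counts were 1 of 5345, 0 of 234 and 7 of 5385.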

How the results depend on the processing

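No replicate could be left out. No paired analysis was possible because each time point was 1 library. The number of periportal barcodes moved with each limit in 1 or more libraries. In time order it was 305, 30, 247, 243 and 51 with at least 30 Cyp2f2 UMIs per 10000, 2063, 730, 1541, 1624 and 1407 with Cyp2e1 under 1, and 3611, 1218, 1794, 3303 and 1579 with Cyp2e1 under 5. Of non-mitochondrial UMIs, it was 3083, 1360 and 2069 in the fed, 4 and 24 h libraries. With at most 15% mitochondrial UMIs it was 2350, 53, 1266 and 348 in the fed, 4, 16 and 24 h libraries, and with at least 2000 UMIs 2711, 1578 and 1929 in the fed, 8 and 16 h libraries. Thinned to 2000 UMIs it was 1093, 1412, 2512 and 1725 in the fasted libraries, and without the Alb-rich barcodes, an alternative chosen after seeing the data, 2484, 840, 1687 and 1048 in the fed, 4, 16 and 24 h libraries.

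Gene counts against fed stayed within 1.5 times of the main count except under 3 settings. With at least 30 Cyp2f2 UMIs, 292 genes were higher and 398 lower at 4 h, from 30 barcodes. With a minimum of 10 CPM, 260, 436, 202 and 341 were higher and 479, 824, 273 and 614 lower in time order. Against the library before, 86, 767 and 333 were then higher and 156, 591 and 375 lower. With a minimum of 100 CPM, 59 were higher at 16 h, and 115, 235, 74 and 188 were lower. Against the library before, 187 and 119 were then higher (16 and 24 h) and 31, 211 and 108 lower. Against other hepatocytes in place of Cyp2e1-high barcodes, 0, 0, 5, 0 and 0 genes were higher in periportal barcodes. A change of the CPM minimum changes how many genes are tested; the cause of the others was not tested.

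The median log2 ratio of all genes, -0.08, -0.07 and -0.08 at 4, 8 and 24 h, was 0.02, 0.07 and 0.02 under TMM. Size factors from medians of ratios gave 0.03, 0.07 and 0.03, and it was -0.21 at 4 h with all UMIs in the denominator. Pck1 was 1.71 to 2.54 above fed on the log2 scale in all libraries and alternatives. Of the 16610 gene and list values recomputed, 2 called ratios changed sign, both at 4 h with at least 30 Cyp2f2 UMIs: Btg2, from 1.27 to -1.51, and Ppargc1a, from 1.21 to -0.29. Calls close to 2-fold were lost under 1 or more alternatives for Klf15, Tat, Slc25a15 and Dnajc3 at 8 h, and Pigr and Mup17 at 24 h. No doublet caller and no estimate of free RNA was run: the alternatives left out the 5% deepest barcodes with those holding markers of other cells, or subtracted an assumed 10%. In the shallowest sum, at 16 h, a gene with 0 UMIs such as Krt7 had an upper limit of 0.463 CPM.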
